A study of Mus musculus with 12 samples.

Results

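Small RNA and target RNA interactions captured on tagged Ago2 of excitatory neurons were compared with those captured on total Ago2 in forebrain libraries that carry the same library numbers. All 12 samples of the study came from the forebrain of adult C57BL/6 mice, and the treatment text gives 1 mouse cross for all of them: Camk2a-Cre/ERT2 crossed to a ROSA26 CAG-GFP/Eif2c2 allele, given 2 mg tamoxifen a day for 5 days, with tissue taken 14 to 21 days later at 10 to 12 weeks of age. The excitatory group is 3 libraries precipitated with anti-myc (9B11), so its cells are those in which the Camk2a promoter drove Cre. The comparison group is forebrain replicates 5 to 7, 3 libraries precipitated with anti-Ago2 (2D4); 4 further anti-Ago2 libraries (replicates 1 to 4) and 2 anti-IgG1 libraries served here only as reference lists. Whether the mice behind the anti-Ago2 and IgG libraries carried the tagged allele is not stated.

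The authors joined each small RNA to its target by ligation, sequenced the chimeric molecules and called peaks on the pooled libraries of each group, with at least 3 reads in at least 2 libraries. The peak lists of the excitatory group and of replicates 5 to 7 name libraries with 3 numbers in common and a different suffix letter, whose meaning is not given. Members were all peaks of these lists except those on mitochondrial rRNA and on Gm42418, a gene that overlaps the nuclear rRNA repeat. That left 704 of 766 peaks in the excitatory list and 3020 of 3611 in the list of replicates 5 to 7, together 3724 of the 250567 peaks in the 4 lists of the series. The peaks left out carried 53.6% of the summed score of the excitatory list and 49.5% of that of replicates 5 to 7. The score is a whole number that the authors gave each peak, 3 at the lowest, and how it was computed is not given in the sources used here. Because libraries were pooled before peak calling, each list is 1 observation with no replicate spread, and every test and interval in what follows compares lists and covers counting error only. Cell type, antibody and the Ago2 precipitated (tagged or total) changed together between the 2 lists and cannot be told apart.

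Argonaute 2 holds a small RNA and is guided to target transcripts mainly by the seed, the bases near the 5′ end of the small RNA. In the forebrain, miR-124, miR-128, miR-138 and miR-9 are known as neuronal miRNAs, while miR-126 is known from endothelial cells and miR-219 and miR-338 from oligodendrocytes. A peak therefore names both partners, and a pair is a small RNA name together with a gene symbol that has at least 1 peak.

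Of the 137 small RNAs in either list, 116 matched a mature sequence in RefSeq (GRCm38.p6). The sequences shown first belong to small RNAs with a higher share of peaks in the excitatory list, 5′ to 3′, with the seed (bases 2 to 8) in capitals.
miR-128-3p: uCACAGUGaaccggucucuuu
miR-138-5p: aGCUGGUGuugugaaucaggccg
miR-127-3p: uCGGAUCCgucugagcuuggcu
miR-7a-5p: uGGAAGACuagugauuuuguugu
miR-24-3p: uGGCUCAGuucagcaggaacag
Those with a lower share carried these sequences, and miR-9-5p and miR-9-3p are the opposite arms of 1 hairpin.
miR-9-5p: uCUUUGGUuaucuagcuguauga
miR-9-3p: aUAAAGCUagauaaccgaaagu
miR-26a-5p: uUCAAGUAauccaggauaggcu
miR-125b-5p: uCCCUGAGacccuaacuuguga
miR-30c-5p: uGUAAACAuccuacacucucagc
miR-153-3p: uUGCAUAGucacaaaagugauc
miR-137-3p: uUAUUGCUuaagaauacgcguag
The miR-29 and let-7 families are shown because their members share 1 seed each and yet held unequal numbers of peaks within a list. Of these families, only miR-29c-3p differed between the lists in the test given below.
miR-29a-3p: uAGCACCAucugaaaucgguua
miR-29b-3p: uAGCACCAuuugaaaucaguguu
miR-29c-3p: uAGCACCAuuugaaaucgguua
let-7a-5p: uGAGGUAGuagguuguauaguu
let-7c-5p: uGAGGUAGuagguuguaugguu

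Most excitatory pairs were found again in replicates 5 to 7, and few of the pairs of replicates 5 to 7 were found in the excitatory list. The excitatory list held 588 pairs over 57 small RNAs and 458 genes, and the list of replicates 5 to 7 held 2363 pairs over 132 small RNAs and 1462 genes. The lists shared 335 pairs. These were 57.0% of the excitatory pairs (95% Wilson interval 52.9 to 60.9%) and 14.2% of those of replicates 5 to 7 (12.8 to 15.6%), with 253 pairs limited to the excitatory list and 2028 limited to replicates 5 to 7. The list of replicates 5 to 7 was 4.29 times as long. Cut to its 704 highest-scoring peaks, it held 175 pairs of the excitatory list, 29.8% of the excitatory pairs and 33.5% of its own 523. This cut changed score as well as length, because the excitatory list kept all its peaks down to a score of 3. The effect of length alone was not tested. All results given for lists of equal size use this cut. At the level of genes, 346 were shared, 75.5% of the excitatory genes and 23.7% of those of replicates 5 to 7.

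Most shared pairs had their peaks at the same sites. Of the 335, 302 (90.1%) had peaks in the 2 lists with 1 or more bases in common, on 1 strand, and 314 (93.7%) lay in the same annotated feature in both lists. Where an excitatory pair was absent from replicates 5 to 7, its gene was often present there with another small RNA, in 138 of 253 cases (54.5%), and in 38 cases (15%) with a small RNA of the same seed. Nearly all pairs of every class were in the list of replicates 1 to 4, which holds 242044 peaks. There, 334 of 335 shared pairs (99.7%), 241 of 253 pairs limited to the excitatory list (95.3%) and 1970 of 2028 limited to replicates 5 to 7 (97.1%) had a peak. The IgG list kept 1 peak under the same rule, in an intergenic region, and held no pair.

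Pairs with a higher score, summed over the peaks of the pair, were found more often in the other list. Of the excitatory pairs with score 3, 111 of 279 (39.8%) were also in replicates 5 to 7, against 48 of 62 (77.4%) with scores of 7 to 9 and 30 of 31 (96.8%) with scores of 10 to 19. All 7 excitatory pairs with a score of 20 or more were shared. In the other direction, 51 of 987 pairs of replicates 5 to 7 with score 3 (5.17%) and 32 of 48 with a score of 20 or more (66.7%) were in the excitatory list. The score in replicates 1 to 4 ordered the pairs of replicates 5 to 7 in the same way, from 17 of 827 (2.06%) at scores of 1 to 49 to 55 of 137 (40.1%) at 500 or more. Pairs limited to the excitatory list were weak there, with a median score of 3 and a highest score of 11, and those limited to replicates 5 to 7 had a median of 4 and a highest of 81.

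**Figure D1:**
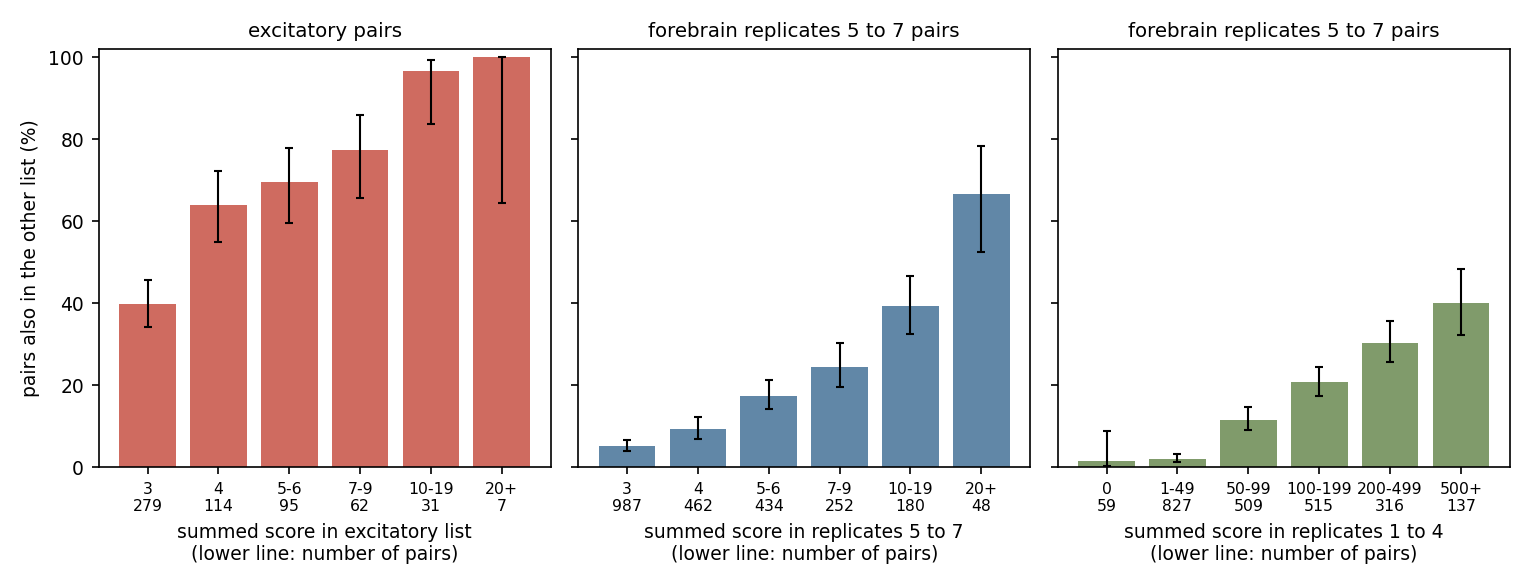
Share of pairs also found in the other list (y axis, %) by summed score, for excitatory pairs (left), pairs of replicates 5 to 7 by their own score (middle) and the same pairs by their score in replicates 1 to 4 (right); bars are shares, whiskers 95% Wilson intervals, and the lower line of the axis labels gives the number of pairs. The share climbs from 39.8% to 100% on the left and from 5.17% to 66.7% in the middle.

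The small RNAs differed in how many of their pairs were shared. miR-124-3p supplied 156 of the 335 shared pairs (46.6%), which were 67.5% of its 231 excitatory pairs and 21.7% of its 720 pairs in replicates 5 to 7. Of the pairs of replicates 5 to 7, those of miR-138-5p (9 of 30, 30%), miR-29b-3p (26 of 113, 23.0%), miR-29a-3p (32 of 153, 20.9%) and miR-128-3p (21 of 114, 18.4%) were also found in the excitatory list at shares near that of miR-124-3p. The same share was 9.24% for miR-9-5p (23 of 249), 8.59% for miR-26a-5p (17 of 198) and 1.54% for miR-125b-5p (1 of 65). None of the 32 pairs of miR-29c-3p, 27 of miR-153-3p, 26 of miR-9-3p or 21 of miR-137-3p was in the excitatory list. For miR-153-3p, miR-9-3p and miR-137-3p this was fixed in advance, since each had 0 excitatory peaks, and miR-29c-3p had 1. Differences between small RNAs in these shares were not tested.

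The make-up of the lists by small RNA differed in 14 of the 39 small RNAs with at least 10 peaks in both lists together (35.9%; 15.4% higher and 20.5% lower in the excitatory list), at a threshold of 0.05 on the Benjamini-Hochberg adjusted p of a two-sided Fisher's exact test. miR-124-3p took 274 of 704 excitatory peaks (38.9%, 95% Wilson interval 35.4 to 42.6%) and 970 of 3020 in replicates 5 to 7 (32.1%, 30.5 to 33.8%; Fisher's exact test, adjusted p = 0.0124). miR-128-3p took 7.39% against 4.47% (adjusted p = 0.0142), miR-138-5p 2.70% against 1.23% (0.0364) and miR-127-3p, from an imprinted miRNA cluster, 2.56% against 1.26% (0.043). miR-7a-5p took 1.85% against 0.629% (0.0229) and miR-24-3p 1.56% against 0.596% (0.043). With lists of equal size, the difference of miR-124-3p fell from 6.80 to 0.142 percentage points and that of miR-7a-5p from 1.22 to 0 points. Most peaks of the miR-7 family were annotated as intergenic and lay in 1 stretch of the X chromosome (mm10 chrX:61183282-61186034), with 14 of 17 in the excitatory list and 22 of 27 in replicates 5 to 7. The call of miR-7a-5p thus rests largely on 1 locus, whose peaks are not independent counts. In coding sequence and UTRs miR-7a-5p had 2 peaks in each list.

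Lower in the excitatory list were both arms of miR-9, with 6.82% against 10.9% for miR-9-5p (Fisher's exact test, adjusted p = 0.0126) and 0 of 704 peaks against 31 of 3020 for miR-9-3p (0.0142). miR-26a-5p took 4.26% against 7.62% (0.0126), and miR-125b-5p 0.710% against 2.81% (0.0124). miR-153-3p had 0 peaks against 30 (0.0199) and miR-137-3p 0 against 24 (0.043); a count of 0 of 704 allows a share of up to 0.426% by a limit of 3 counts, and the upper Wilson bound is 0.543%. miR-30c-5p had 2 peaks against 41 (0.038). Small RNAs with no excitatory peak at all numbered 80, and together they held 255 peaks, 8.44% of replicates 5 to 7.

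The miR-29 and let-7 families allow members of 1 seed to be set side by side. miR-29c-3p, which has the single substitution C10U relative to miR-29a-3p counted from the 5′ end, had 1 excitatory peak against 36 (Fisher's exact test, adjusted p = 0.0364). By the same exact test its relatives missed the threshold, miR-29a-3p at 7.95% against 6.03% (adjusted p = 0.165) and miR-29b-3p at 6.68% against 4.67% (0.091). The 3 members together took 104 excitatory peaks (14.8%) and 359 in replicates 5 to 7 (11.9%). The 8 let-7 members together took 63 peaks (8.95%, 7.06 to 11.3%) and 270 peaks (8.94%, 7.97 to 10.0%). With lists of equal size, miR-128-3p stayed higher and miR-125b-5p and miR-26a-5p lower, while the other calls were lost or could not be tested. Among peaks at or above the median score, with fewer peaks in each list, none of 23 small RNAs passed (5 at an unadjusted p under 0.05), although the difference was 7.28 percentage points for miR-124-3p and 1.99 for miR-7a-5p.

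**Figure D2:**
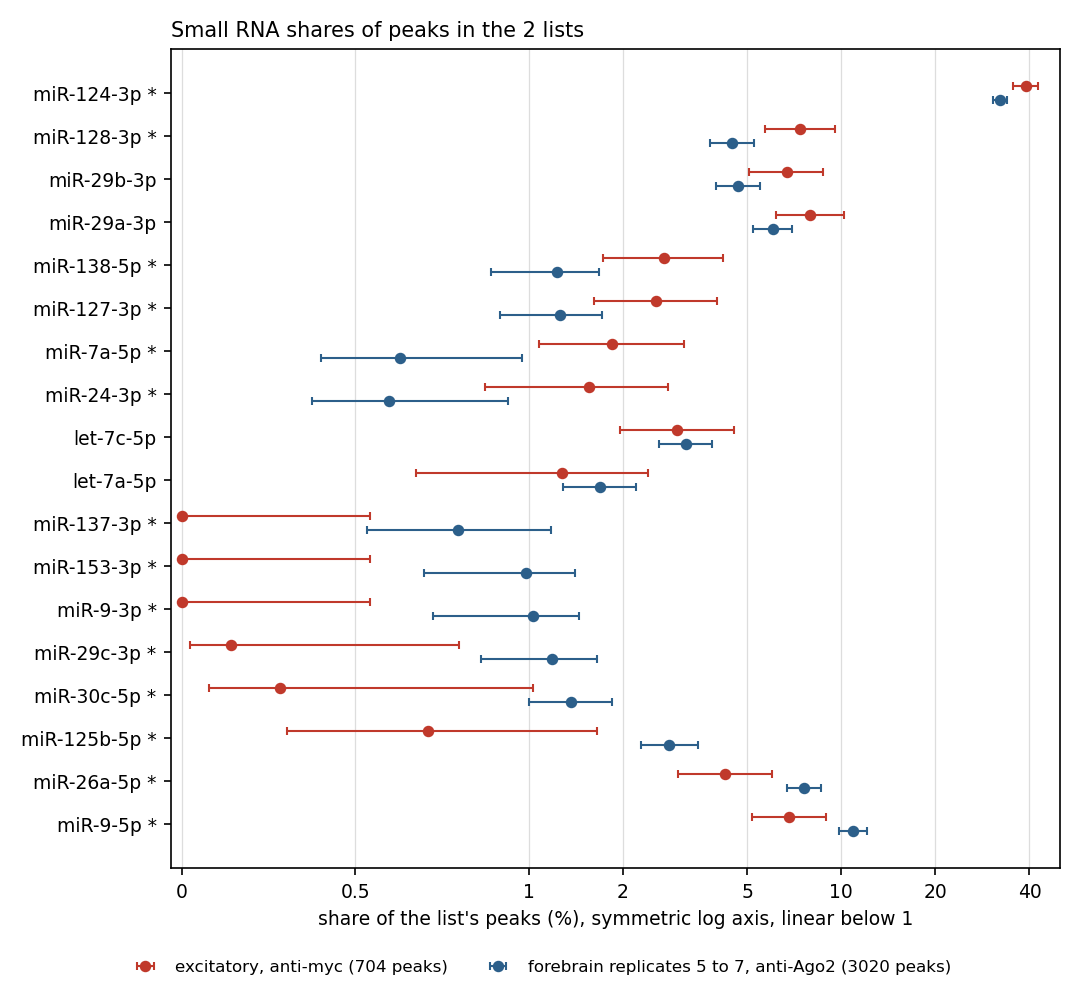
Share of each list's peaks (x axis, %, symmetric log axis that is linear below 1) for the small RNAs with the most peaks in either list or with a passing test (starred), ordered from most higher to most lower in the excitatory list; points are shares and whiskers 95% Wilson intervals. miR-124-3p stands at 38.9% and 32.1%, and miR-9-3p, miR-153-3p and miR-137-3p at 0 in the excitatory list.

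Excitatory peaks lay more often in coding sequence and less often in 3′ UTRs. Of 10 features tested, 4 passed (40%): coding sequence (49.9% against 37.4% of peaks; Fisher's exact test, adjusted p = 1.48e-08), 3′ UTR (30.7% against 40.2%, 1.32e-05), lincRNA (0.426% against 1.82%, 0.0127) and intron (4.40% against 7.22%, 0.0178). The intron difference had the opposite sign, 2.13 percentage points, with lists of equal size. The lincRNA call was lost when distinct pairs were counted (adjusted p = 0.106, exact test), and 25 of the 55 lincRNA peaks of replicates 5 to 7 lay on Malat1 and 25 on 1700020I14Rik. Among pairs, the coding share was 56.1% of those shared, 54.2% of those limited to the excitatory list and 39.4% of those limited to replicates 5 to 7. Among the peaks of a miRNA in coding sequence and UTRs, the coding share was 78.7% against 52.4% for miR-128-3p, 59.5% against 45.1% for miR-124-3p and 54.2% against 27.7% for miR-26a-5p. For miR-9-5p it was 66.0% (51.7 to 77.8%) against 62.5% (56.6 to 68.0%), intervals that overlap. It was lower in the excitatory list, again with overlapping intervals, for miR-29b-3p at 48.7% and 54.1%, let-7a-5p at 55.6% and 64.3% and let-7c-5p at 57.9% and 71.8%.

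miR-124-3p supplied most of the 15 strongest shared pairs, ranked by the score in the list where a pair scored lower. miR-124-3p with Camk2a, the alpha subunit of the calcium and calmodulin kinase of excitatory synapses, scored 94 in the excitatory list, 98 in replicates 5 to 7 and 3450 in replicates 1 to 4. Its score in the excitatory list came close to that of replicates 5 to 7 although the summed score of the list was lower, at 3567 against 16067. miR-124-3p with Egr1, an immediate early transcription factor, scored 21 and 19, and with Phactr1, a regulator of protein phosphatase 1 and actin, 26 and 35. miR-128-3p with Ank2, an ankyrin of the axonal membrane skeleton (coding sequence, mm10 chr3:127010964-127010981, minus strand), scored 25 and 17. miR-22-3p with Camk2n1, an inhibitor of the same kinase (3′ UTR, chr4:138457156-138457173, plus strand), scored 20 and 35.

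Further strong pairs had raw scores above, at or below those in replicates 5 to 7. miR-124-3p with Ids, a lysosomal sulfatase (3′ UTR, chrX:70344124-70344142, minus strand), scored 16 against 140, and with Pcdh1, a protocadherin, 19 against 87. Map2 gave 2 of the strongest pairs, with miR-124-3p at 16 and 42 and with miR-9-5p at 15 and 32. miR-124-3p scored 14 and 24 with Gria3, an AMPA receptor subunit, 14 and 23 with Syp (synaptophysin), 16 and 19 with Syt7 (a synaptotagmin), 14 and 14 with Arhgap5 (a GTPase-activating protein) and 13 and 19 with mt-Nd4l. miR-668-3p with its own gene, Mir668, scored 106 and 34; the peak (chr12:109734736-109734752, plus strand) lies in the annotated miRNA. Over the 335 shared pairs the raw score was higher in the excitatory list for 65, equal for 52 and higher in replicates 5 to 7 for 218. As a share of the summed score of each list, the median log2 ratio of excitatory over replicates 5 to 7 was 1.76, with 316 pairs above 0. Dividing by the summed scores added 2.17 to every log2 ratio, and the median log2 ratio of raw scores was -0.415. Every shared pair also had to reach a score of 3 in the shorter list, so pairs that fell short of it there are not counted.

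**Figure D3:**
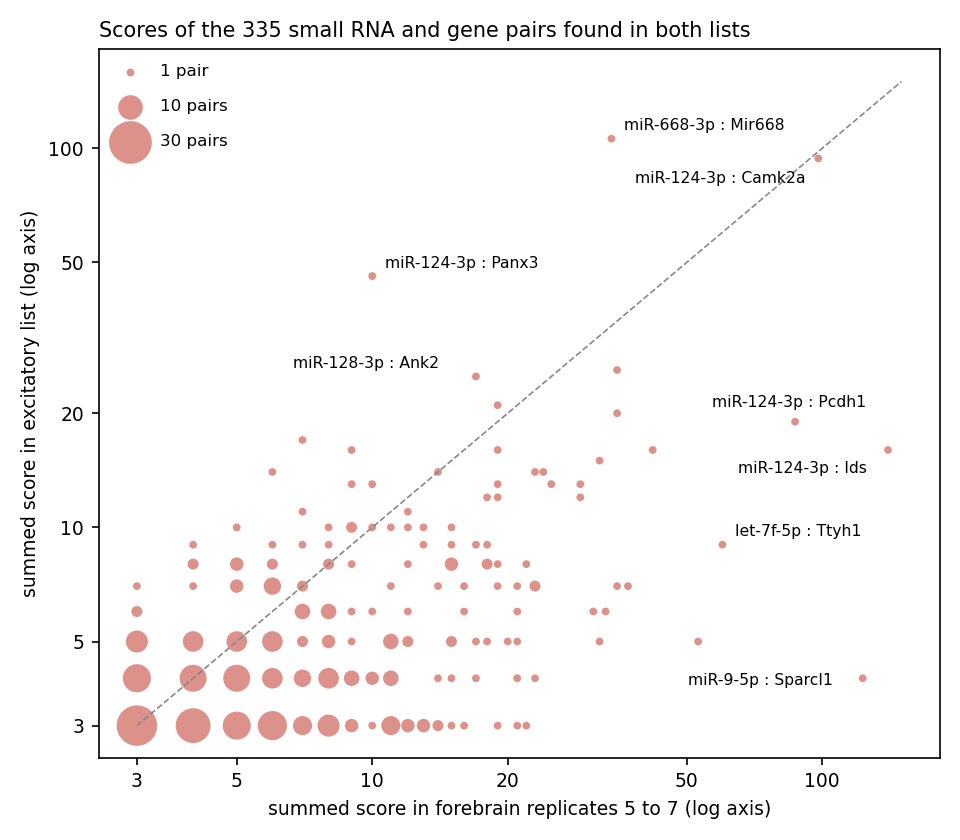
Summed score of each of the 335 shared pairs in the excitatory list (y axis, log) and in replicates 5 to 7 (x axis, log), with the area of a point in proportion to the number of pairs at that position and the dashed line marking equal scores. miR-124-3p with Camk2a lies near the line at 94 and 98, miR-668-3p with Mir668 well above it and miR-9-5p with Sparcl1 far below it.

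Pairs limited to the excitatory list were led by miR-29a-3p with an intron of Panx3, a pannexin channel gene, at a score of 11. The next were let-7b-5p with the calcium pump Atp2b3 (coding sequence), miR-181b-5p with the neurofilament gene Ina (3′ UTR), miR-29a-3p with Fem1b (3′ UTR) and miR-29b-3p with Tmem178b (intron), each at 8. The Fem1b and Tmem178b sites were not limited to the excitatory list. Replicates 5 to 7 had other miR-29 members of the same seed there, miR-29b-3p on Fem1b and miR-29a-3p and miR-29c-3p on Tmem178b, each at 5. let-7c-5p with Usp32, and miR-124-3p with the circadian transcription factor Clock, Eif4enif1, Rapgef1 and Sipa1l1, each scored 7. All of these except the Panx3 pair were in replicates 1 to 4, at scores from 39 for miR-124-3p with Eif4enif1 to 615 for miR-124-3p with Sipa1l1.

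At the Panx3 site the excitatory list held more small RNAs than replicates 5 to 7. In all, 6 small RNAs had a peak at mm10 chr9:37663674-37663692 on the minus strand, in an intron, in the excitatory list: miR-124-3p at a score of 46, miR-29a-3p at 11, miR-29b-3p at 7, miR-127-3p at 5, and miR-132-3p and miR-26a-5p at 3. In replicates 5 to 7 the same site had miR-124-3p at 10, the tRNA fragment tRF-3007b at 5 and miR-29c-3p at 3. Replicates 1 to 4 had 0 peaks on Panx3.

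Pairs limited to replicates 5 to 7 reached higher scores. miR-124-3p with Malat1, a nuclear long noncoding RNA, scored 81 over 10 peaks. miR-124-3p also scored 31 with mt-Nd2, 30 with mt-Cytb and 25 with mt-Nd5, all mitochondrial mRNAs, 25 with the cell adhesion gene Cntn1 and 22 with Cmtm4. Slc1a2, the main glutamate transporter of astrocytes, gave 3 of the 10 strongest of these pairs, with miR-9-5p at 29, miR-26a-5p at 26 and miR-124-3p at 22. miR-9-5p with Clasp2, a microtubule plus-end protein, scored 25.

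No target gene passed the test among the 29 with at least 10 peaks in both lists together (0%; Fisher's exact test with Benjamini-Hochberg adjustment), and 7 had an unadjusted p under 0.05 (24.1%). Camk2a, which also names the promoter that drives Cre, had the most excitatory peaks, 14 against 24 in replicates 5 to 7 (1.99% against 0.795%; Fisher's exact test, adjusted p = 0.0712). Map2, a microtubule protein of dendrites, had 11 against 17 (1.56% against 0.563%), and Ddn, which encodes the postsynaptic protein dendrin, had 7 against 6 (0.994% against 0.199%), both at the same adjusted p. Slc1a2 had 0 excitatory peaks against 27, and Malat1 had 0 against 25, again at 0.0712. With the rRNA and Gm42418 peaks kept, 32 genes were tested and 7 passed, 3 higher and 4 lower in the excitatory list. Among them were Ddn (Fisher's exact test, adjusted p = 0.0253), Camk2a (0.0261), Map2 (0.028) and Slc1a2 (0.0422). The differences of these named genes did not grow. That of Ddn went from 0.796 to 0.748 percentage points and that of Slc1a2 from -0.894 to -0.748. The set of tested genes and the list totals changed.

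**Figure D4:**
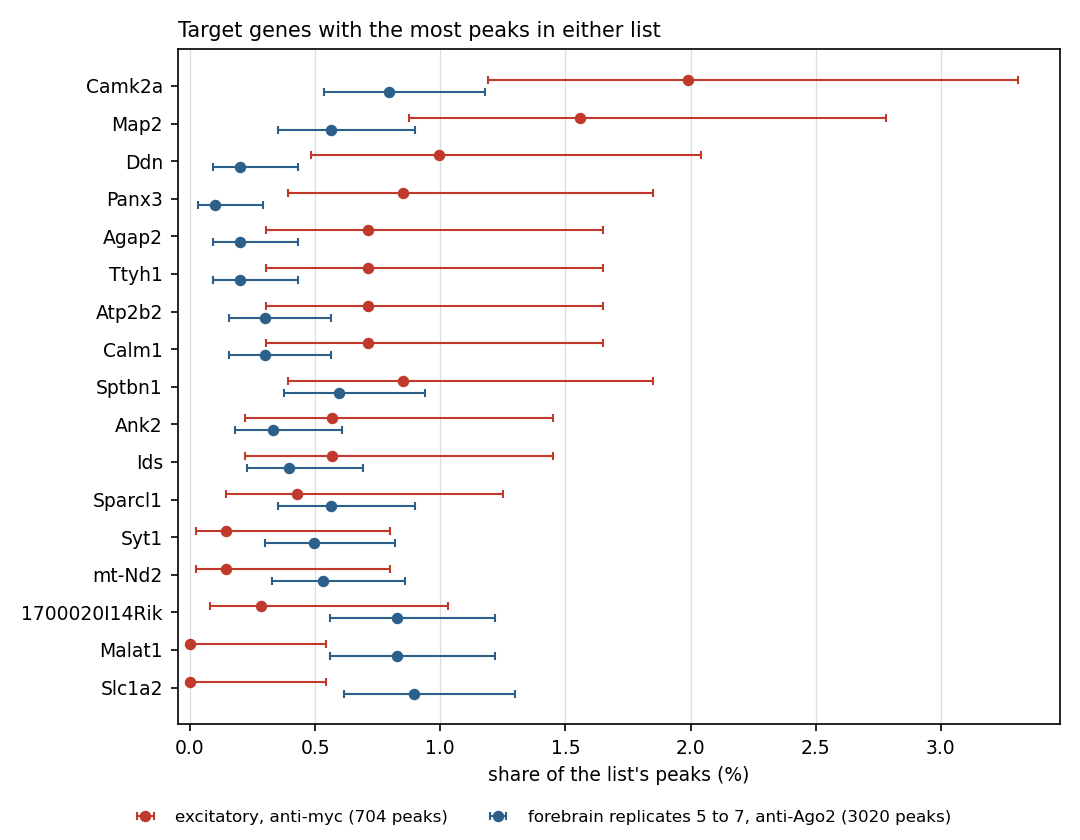
Share of each list's peaks (x axis, %) on the genes with the most peaks in either list, ordered from most higher to most lower in the excitatory list; points are shares and whiskers 95% Wilson intervals. Camk2a stands at 1.99% and 0.795%, and Malat1 and Slc1a2 at 0 in the excitatory list.

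Camk2a and Map2 shared more small RNAs between the lists than any other gene, 6 each. On Camk2a these were miR-124-3p, miR-127-3p, miR-128-3p, miR-138-5p, miR-26a-5p and miR-29a-3p, and its strongest peak, of miR-124-3p in coding sequence, scored 55 in the excitatory list and 39 in replicates 5 to 7. Replicates 5 to 7 paired Camk2a with 13 small RNAs and the excitatory list with those 6. Of the Camk2a peaks, 10 of 14 and 15 of 24 lay in coding sequence. On Map2, 10 of 11 excitatory peaks and 13 of 17 in replicates 5 to 7 were in coding sequence. miR-124-3p scored 9 and 17 there (chr1:66412527-66412547, plus strand), miR-138-5p 9 and 7, and miR-128-3p 5 and 5, while miR-26a-5p in the 3′ UTR (chr1:66439817-66439836) scored 6 and 23. Sptbn1, a spectrin, and Ttyh1, a tweety family membrane protein, followed with 4 shared small RNAs each; 242 of the 278 genes with a shared pair had 1.

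On several genes the excitatory peaks were let-7 members stacked on 1 site. On Ttyh1, 5 let-7 members (let-7a, let-7c, let-7d, let-7f and let-7i) had a coding peak within chr7:4122533-4122552 (plus strand) at scores of 3 to 9, and 6 members in replicates 5 to 7 scored 9 to 60 there. On Agap2, a GTPase-activating protein, 4 let-7 members scored 3 to 8 at chr10:127079647-127079673 (plus strand), and 6 in replicates 5 to 7 scored 3 to 10. On Ddn, 5 let-7 members scored 3 or 4 in the 3′ UTR at chr15:98803876-98803898 (minus strand), against 1, let-7g-5p at 4, in replicates 5 to 7, so miR-124-3p was its only shared small RNA. On Arc, an immediate early gene of dendrites, let-7c-5p scored 8 and 6 and let-7a-5p 7 and 3 at 1 site of the 3′ UTR (let-7c-5p at chr15:74669132-74669149, minus strand). Peaks stacked in this way share a site and a seed and are not independent counts.

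Slc1a2 and Sparcl1 are both expressed by astrocytes. The 27 peaks of Slc1a2 came from 14 small RNAs, 22 of them in the 3′ UTR, and 5 miR-30 members stacked on chr2:102781636-102781654 (plus strand) with scores of 5 to 18. Sparcl1, a secreted matrix protein, had 3 peaks against 17, shares of 0.426% and 0.563% that did not pass the test (Fisher's exact test, unadjusted p = 1). Its strongest pair, miR-9-5p in coding sequence, scored 4 in the excitatory list (chr5:104087061-104087091, minus strand) and 89 at the overlapping peak in replicates 5 to 7.

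Marker genes of the labelled cell type were thinly covered. Of 22 excitatory neuron markers, Camk2a (14 peaks) and Chn1 (1) had excitatory peaks, while Slc17a7 and Neurod6 had 0; in replicates 5 to 7 they had 1 and 0 peaks. The 22 markers took 2.13% of excitatory peaks (95% Wilson interval 1.30 to 3.49%) and 0.960% in replicates 5 to 7 (0.669 to 1.38%), mostly on Camk2a. Chimeric peaks depend on both partners, and less RNA per cell, fewer cells and fewer bound small RNAs cannot be told apart in these pooled tissue lists. Nor can these be told apart from the difference in antibody and in the Ago2 precipitated.

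Astrocyte markers took a smaller share of the excitatory list. The 24 markers held 4 excitatory peaks (0.568%, 0.221 to 1.45%) on 2 genes and 85 peaks (2.81%, 2.28 to 3.47%) on 15 genes in replicates 5 to 7; Slc1a2 had 0 against 27 and Aqp4 0 against 2, Aldh1l1 and Gfap had 0 in both lists, and the 4 excitatory peaks were on Sparcl1 (3) and Plpp3 (1). Glul and Aldoc, enzymes of glutamine synthesis and glycolysis, had 0 against 8 and 0 against 7. Inhibitory neuron markers held 0 excitatory peaks and 5 in replicates 5 to 7 (3 on Gad1 and 1 on Gad2 among them). Oligodendrocyte lineage markers held 4 against 13. Mbp, a myelin protein, had 0 against 4, and Mog 0 in both. Microglial markers held 1 peak against 2 and vascular markers 0 in both lists.

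Dendritically localised mRNAs (14 genes) held 38 excitatory peaks (5.40%, 3.96 to 7.32%) and 57 in replicates 5 to 7 (1.89%, 1.46 to 2.44%), with Camk2a, Map2, Ddn and Arc as leading members; the difference was 3.51 percentage points (1.97 to 5.48). Postsynaptic genes (29) held 33 (4.69%) and 67 (2.22%), led by Camk2a, Ddn and Agap2. The cytoskeleton and transport genes (26) held 37 (5.26%) and 107 (3.54%), the ion channel and pump genes (25) 20 (2.84%) and 49 (1.62%), and the activity-regulated genes (14) 8 (1.14%) and 11 (0.364%), with Arc at 4 and 4 and Egr1 at 3 and 2. Presynaptic genes (25) held 14 (1.99%, 1.19 to 3.31%) and 70 (2.32%, 1.84 to 2.92%), with Syt1 at 1 and 15. The miRNA pathway genes (16) held 3 and 14, led by Tnrc6b at 2 and 7. Among list members with a peak in either list, the median was 2.5 excitatory peaks and 3 in replicates 5 to 7 for the dendritic mRNAs and 0 and 3 for the astrocyte markers, against 0 and 1 over all 1574 genes with a peak. With lists of equal size the difference fell to 2.27 percentage points (0.149 to 4.47) for the dendritic mRNAs, 1.14 (-0.974 to 3.28) for the postsynaptic genes, 1.28 (-0.944 to 3.54) for the cytoskeleton genes, 0.568 (-0.905 to 2.09) for the excitatory neuron markers, 0.568 (-0.478 to 1.71) for the activity-regulated genes and 0.426 (-1.31 to 2.18) for the channels and pumps. The lists share members, Camk2a above all, and were given no test. Of the 38 excitatory peaks on dendritic mRNAs, Camk2a held 14, Map2 11, Ddn 7 and Arc 4. Those on Ddn and Arc include stacked let-7 peaks, which are not independent counts, so the intervals are too narrow. The lists were also chosen with earlier results of these data known.

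**Figure D5:**
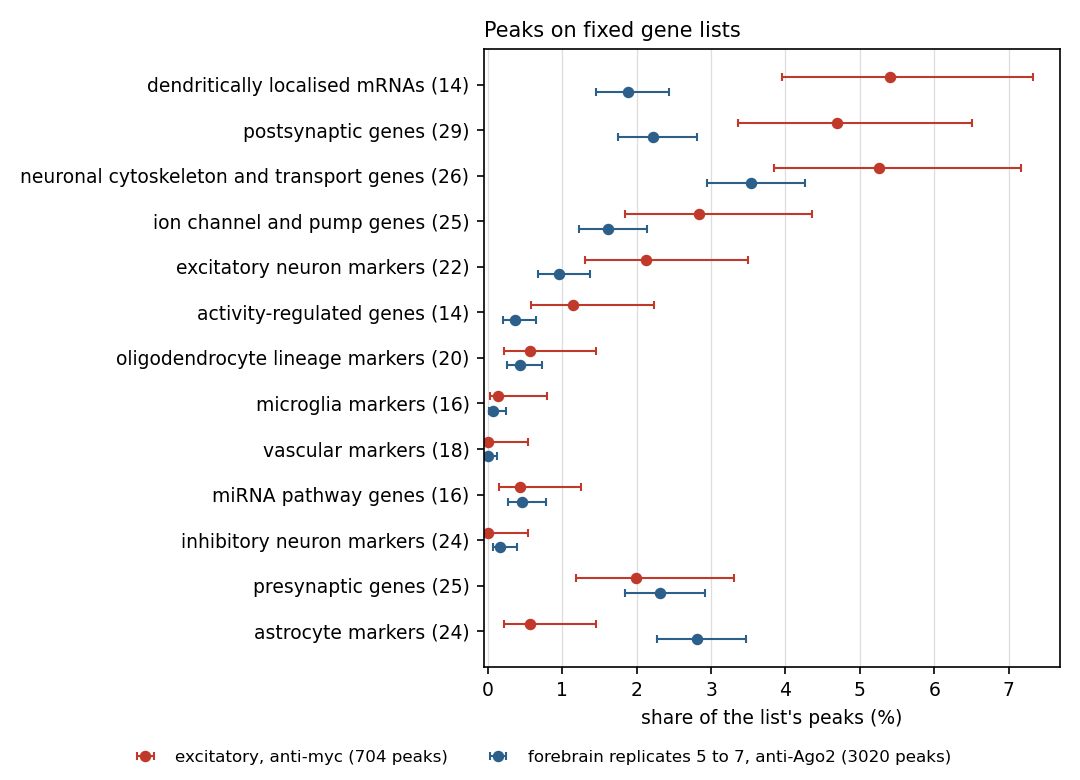
Share of each list's peaks (x axis, %) on 13 gene lists (number of genes in brackets), ordered from most higher to most lower in the excitatory list; points are shares and whiskers 95% Wilson intervals. Dendritically localised mRNAs stand at 5.40% and 1.89% and astrocyte markers at 0.568% and 2.81%.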

How the data were processed

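Chimeric small RNA and target reads were sequenced with 150-base paired ends at 61000000 to 138000000 reads per sample, per the labels' protocols. The authors deposited peak lists called on pooled libraries (at least 3 reads in at least 2 libraries, per the calling summaries; mm10, per the submitters' processing notes), with a small RNA, a gene, a feature and a whole-number score per peak; the aligner, the caller and the definition of the score were not given in the sources used here. Mitochondrial rRNA and Gm42418 peaks were left out. Shares of peaks were compared with Fisher's exact test (SciPy 1.17.1), two-sided, Benjamini-Hochberg adjusted over all features with at least 10 peaks in both lists together, and given 95% Wilson intervals; the scripts were tested on simulated data. Scores were summed per pair. Named were the 10 small RNAs and 10 genes with the most peaks per list and all that passed, the 15 shared and 10 limited pairs with the highest scores, and up to 4 members per gene list, with defining markers; some markers are not reported here. The members and lists were chosen with earlier results of these data known.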

Additional observations from a re-analysis of the deposited data

How the results depend on the processing

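No paired analysis was possible because the libraries of each group were pooled before peaks were called, and no library could be left out for the same reason. Matches of seeds to target sites were not run, since no genome of the build was used. Of the main shares and counts recomputed, 40 stayed within their interval or within 1.5 times and 13 did not. With peaks below the median score of their list left out, 2 features and 0 small RNAs passed, and 63.5% of excitatory pairs were shared. With lists of equal size, 3 small RNAs and 1 gene passed (Slc1a2, lower, 0 excitatory peaks; Fisher's exact test, adjusted p = 0.00563), the shared pairs were 29.8% and 33.5% of the lists, the intron difference turned to 2.13 percentage points and that of Ttyh1 to -0.142, while the astrocyte marker difference was -3.41. With coding and UTR peaks alone, 8 small RNAs passed. With no peak left out, 7 genes passed and the median log2 ratio of score shares was 1.46. With seeds merged, 61.5% of excitatory pairs were shared. With overlapping peaks in place of gene symbols, 12.5% of the peaks of replicates 5 to 7 were shared, and 91.4% of those limited to the excitatory list were in replicates 1 to 4. Leaving out peaks that overlap an IgG peak changed no count of passing features, small RNAs or genes. The cause of these changes was not tested. Depth limits the excitatory list: a small RNA or gene with 0 of 704 peaks can hold up to 0.426% of them (3 counts), and 0 of 3020 allows up to 0.0993%.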

Other observations

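The small RNAs listed here for cell types other than neurons were thin in replicates 5 to 7 and had no peak in the excitatory list. The oligodendrocyte, astrocyte, microglial and vascular miRNA lists took 0.331%, 0.397%, 0.0331% and 0.497% of the peaks of replicates 5 to 7. All lie below 0.543%, the upper Wilson bound for 0 of 704, so 0 excitatory peaks does not show a lower share. Among 4 oligodendrocyte lineage miRNAs, miR-219a-5p had 9 peaks and miR-338-3p 1 in replicates 5 to 7. In the list named for astrocytes, miR-204-5p had 8 and miR-21a-5p 1. That list and its share also include miR-143-3p with 3, whose place among astrocyte miRNAs is uncertain. The endothelial miR-126a-3p had 14 (Fisher's exact test against 0 of 704, adjusted p = 0.188) and miR-142a-3p of blood cells and microglia had 1. The 21 neuron enriched miRNAs took 437 excitatory peaks (62.1%, 95% Wilson interval 58.4 to 65.6%) and 1677 in replicates 5 to 7 (55.5%, 53.8 to 57.3%). Of these, 274 and 970 were miR-124-3p, whose difference was 0.142 percentage points with lists of equal size. Other members of this list went both ways in Fisher's exact test. Lower in the excitatory list were miR-9-5p, miR-9-3p, miR-153-3p and miR-137-3p. Higher was miR-128-3p, as were miR-7a-5p, miR-127-3p and miR-138-5p. The list without miR-124-3p was not tested.

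Mitochondrial mRNAs, transcribed from the mitochondrial genome, held 5 excitatory peaks on 5 genes (0.710%, 0.304 to 1.65%), 69 peaks in replicates 5 to 7 on 9 genes with 20 small RNAs (2.28%, 1.81 to 2.88%) and 0.487% of the peaks of replicates 1 to 4. Of intergenic peaks, 26 of 74 in the excitatory list and 123 of 309 in replicates 5 to 7 lay within 5000 bases of Gm42418 on its strand, and the rule kept them.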
